A study of Mus musculus with 12 samples.

Results

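The genes described here are 10 well-known long noncoding RNAs (lncRNAs) of the mouse, namely Gas5, Snhg1, Snhg3, Snhg8, Snhg12, H19, Meg3, Kcnq1ot1, Malat1 and Neat1, followed in the livers of mice with carbon tetrachloride (CCl4) fibrosis. A gene was taken through its Ensembl transcripts in the deposited table, by its symbol, and its values were summed in each liver. Of the 10 genes, 8 had an Ensembl transcript in the table, with 17 such transcripts between them, among 24296 genes with an Ensembl transcript and a symbol. Neat1 and Snhg3 had none. All 10 had NONCODE transcripts at their locus, 119 in all, which the choice by Ensembl transcripts leaves out.

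Gas5 and the Snhg genes are host genes of small nucleolar RNAs (snoRNAs). Their spliced RNA has no known protein product of importance and is mostly short-lived, while snoRNAs released from their introns guide chemical modification of ribosomal RNA. H19, Meg3 and Kcnq1ot1 are imprinted RNAs transcribed from the copy of a single parent, Malat1 is an abundant RNA of nuclear speckles, and Neat1 is the scaffold of paraspeckles.

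The series follows CCl4 fibrosis of the liver in male C57/BL6N mice and its treatment with phloridzin, a plant glucoside, or with silibinin, a milk thistle flavonolignan given as the reference drug. Controls are labelled WT, and the labels do not say whether they received the oil alone. Mice of the model group received 2 injections of CCl4 in olive oil into the abdomen each week, 5 mL/kg at a time, over 8 weeks. The silibinin group, at about 27 mg/kg, and the phloridzin group, at its high dose of 40 mg/kg, received the same CCl4 and, from week 5, the drug. Animals were killed after 8 weeks, and their age is not given in the labels. Liver RNA was sequenced for 3 livers of each of these 4 groups. As a model, repeated CCl4 injures hepatocytes directly, and both drugs were given while the injury went on, so that no group shows recovery after CCl4 was stopped.

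Total RNA of 12 livers was sequenced, and the table gives fragments per kilobase of transcript, scaled to library size (FPKM), for 169430 transcripts. Library sizes recovered from the values were 105.2, 108.4 and 109.6 M fragments in the controls and 83.7, 101.5 and 100.1 M in the model livers. They were 106.7, 110.9 and 110.1 M in the silibinin livers and 102.1, 104.7 and 98.5 M in the phloridzin livers. At these depths, 1 fragment on 1 kilobase equals between 0.00902 and 0.01195 FPKM. The library kit is not a stranded one by its name, so antisense RNA that overlaps a gene cannot be told apart from the gene's own RNA. The labels number samples from 1 to 3 and do not say that they are separate animals, so each p below measures the spread between samples. Unless stated, that spread is taken within all 4 groups in 1 fit. In bulk liver, fewer cells of a type and less RNA per cell cannot be told apart.

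The tissue label was compared with markers of liver cells. Hepatocyte markers, 10 of 10 above the filter used below and led by Alb, summed to means of 22500, 25300, 30500 and 28400 FPKM in the control, model, silibinin and phloridzin groups. Phloridzin 1 stood apart from the other livers of its group. Across genes, its log2(FPKM + 1) values correlated with those of phloridzin 2 and 3 at r = 0.922 and 0.918, against 0.950 between the latter and at least 0.937 within the other groups. Its 8 proliferation markers, led by Top2a, summed to 105 FPKM, against 14.3 and 10.7 in phloridzin 2 and 3. Counts in phloridzin against model are therefore also given without it where they move, and single genes where their pass in that comparison ended or began.

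Ensembl transcripts carried little of the signal at most loci. Summed over the 12 livers, they held 33.1% of the locus FPKM of Snhg12, 27.9% of H19 and 5.18% of Gas5. The share was 1.24% for Snhg8, 0.786% for Snhg1, 0.672% for Meg3, 0.12% for Malat1 and 0.0417% for Kcnq1ot1. The bar chart of these shares shows NONCODE transcripts above the Ensembl ones in each of the 10 loci. Mean Ensembl FPKM over the 12 livers was 0.42 for Gas5, 0.0927 for H19, 0.0809 for Malat1, 0.0713 for Snhg1, 0.0342 for Snhg8, 0.0077 for Meg3 and 0.000838 for Kcnq1ot1.

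**Figure D1:**
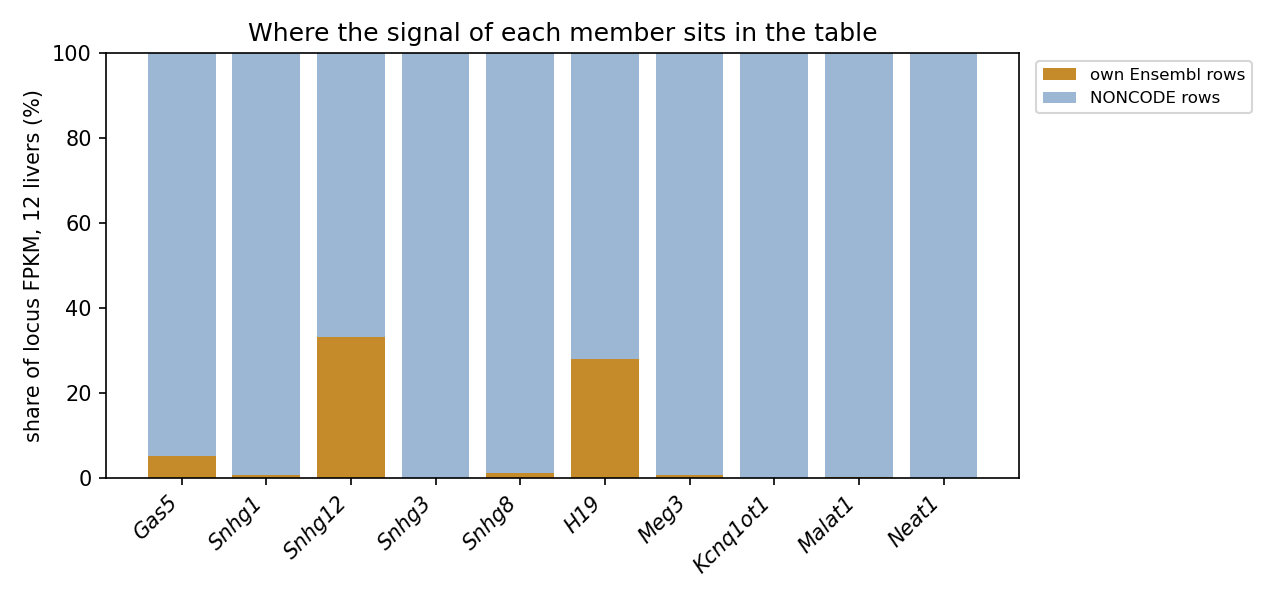
Share of the locus FPKM (vertical axis, %, summed over 12 livers) held by each gene's own Ensembl transcripts (orange) and by NONCODE transcripts on the same strand (blue). The Ensembl share was 33.1% in Snhg12 and 27.9% in H19, and 5.18% or less in the other 8 genes.

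Genes were tested where their mean reached 0.5 FPKM, and of the 8 genes with Ensembl transcripts Snhg12 alone passed this filter. A gene is called when limma's adjusted p (Benjamini-Hochberg over all genes tested) is under 0.05 and the difference of log2(FPKM + 1) is above 1 or below -1. The addition of 1 before the logarithm understates the change of genes under about 1 FPKM. On Ensembl transcripts, Snhg12 stood at 0.225, 0.388 and 0.281 FPKM in the controls, 1.31, 1.41 and 0.826 in the model livers, 0.228, 0.422 and 0.229 in the silibinin livers and 0.111, 0.651 and 0.533 in the phloridzin livers. Each model liver was above each of the other 9. Snhg12 passed the filter (mean 0.552 FPKM) through the model group (mean 1.18), as the other 3 groups had means of 0.432 or less, and with no filter its 3 differences from the model were also under an adjusted p of 0.05. The difference of log2(FPKM + 1) was 0.74 ± 0.16 (SE, n = 3 and 3) for model against control, with an adjusted p of 0.0065. For silibinin against model it was -0.75 (adjusted p = 0.0136), and for phloridzin against model -0.62 (adjusted p = 0.0337), which did not pass without phloridzin 1 (-0.45, adjusted p = 0.0616).

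None of these differences of Snhg12 passed the fold limit, so limma called 0 genes of the group in each of the 6 comparisons. Snhg12 was under an unadjusted p of 0.05 in 3 comparisons, those against the model, and in 0 of the others. With voom of limma on recovered fragment numbers it was called in model against control and in silibinin against model, where voom called 2535 and 795 of 13150 genes. In the fit of log2(FPKM + 1), 10.5% of all 13158 genes were called in model against control, 4.0% in silibinin against model and 3.52% in phloridzin against model. The share was 0.0228% in phloridzin against silibinin, 1.98% in silibinin against control and 3.02% in phloridzin against control.

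The rest of the text uses the locus FPKM, a sum over a gene's own Ensembl transcripts and the NONCODE transcripts that overlap it on the same strand. This sum was chosen after the data were seen. It was used for the 10 genes and for the 2 lists of other noncoding genes below, and 13181 genes were then tested, with 9 of the 10 among them. H19, at a mean of 0.332 locus FPKM, was under the filter. The deposited values are not corrected for library composition, and over all genes tested the median difference of log2(FPKM + 1) was 0.34 in model against control. It was -0.15 in silibinin against model, -0.11 in phloridzin against model, 0.03 in phloridzin against silibinin, 0.16 in silibinin against control and 0.18 in phloridzin against control. Median-ratio scaling of the livers brought the first of these to 0.01, and differences are given below also relative to the median of all genes.

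In model against control, which asks what CCl4 injury does to the liver, 4 of the 9 loci tested rose. These were Gas5, Snhg1, Snhg12 and Kcnq1ot1, and 1 of them, Snhg1, was called. In its single highest transcript Kcnq1ot1 did not rise (-0.18, adjusted p = 0.86), and its sign also turned in the drug comparisons with the model. Of all genes tested, 34.9% passed at an adjusted p under 0.05 and 10.5% were called, and 4106 of the genes that passed rose while 500 fell. With median-ratio scaling 1756 genes rose and 1549 fell, Snhg12 no longer passed (0.62, adjusted p = 0.0985), and Snhg3 (-0.87, adjusted p = 0.0145) and Snhg8 (-0.55, adjusted p = 0.0129) passed as lower in the model.

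In silibinin against model, which asks what the reference drug changes in injured liver, the loci of Gas5, Snhg1, Snhg12 and Kcnq1ot1 fell, and 1, Snhg1, was called. The shares of all genes were 14.1% at an adjusted p under 0.05 and 3.99% called. Scaled by median ratios, Gas5 and Snhg1 passed as lower, while Snhg12 (-0.73, adjusted p = 0.0923) and Kcnq1ot1 (-0.46, adjusted p = 0.0728) did not pass and Snhg1 (-0.93) was not called.

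In phloridzin against model, the same question for the other drug, these 4 loci fell and 1, Snhg12, was called, where 13.0% of all genes passed and 3.54% were called. Under median-ratio scaling Gas5 (-0.62, adjusted p = 0.0354) and Snhg12 (-0.90, adjusted p = 0.0469) passed as lower, Snhg1 (adjusted p = 0.121) and Kcnq1ot1 (adjusted p = 0.0748) did not, and none was called. Without phloridzin 1, Gas5, Snhg12 and Kcnq1ot1 passed and 0 loci were called. The comparisons with the model share the 3 model livers, so that the 4 loci moving one way and then the other is not independent evidence.

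Between the drugs, limma found 0 loci at an adjusted p under 0.05, where 0.0228% of all genes passed and 0.0228% were called. Snhg3 alone was under an unadjusted p of 0.05 (0.49 ± 0.22, adjusted p = 1.0 in limma), and voom found 0 loci at an unadjusted p under 0.05. In silibinin against control 0 loci passed in limma, with 2 under an unadjusted p of 0.05 (1 with voom) and 5.05% of all genes passing and 1.98% called. In phloridzin against control Snhg1 passed as higher and 0 loci were called, where 8.00% of all genes passed and 3.02% were called. Scaled by median ratios Snhg1 no longer passed there (0.64, adjusted p = 0.143) and Snhg8 passed as lower (-0.62, adjusted p = 0.0253).

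**Figure D2:**
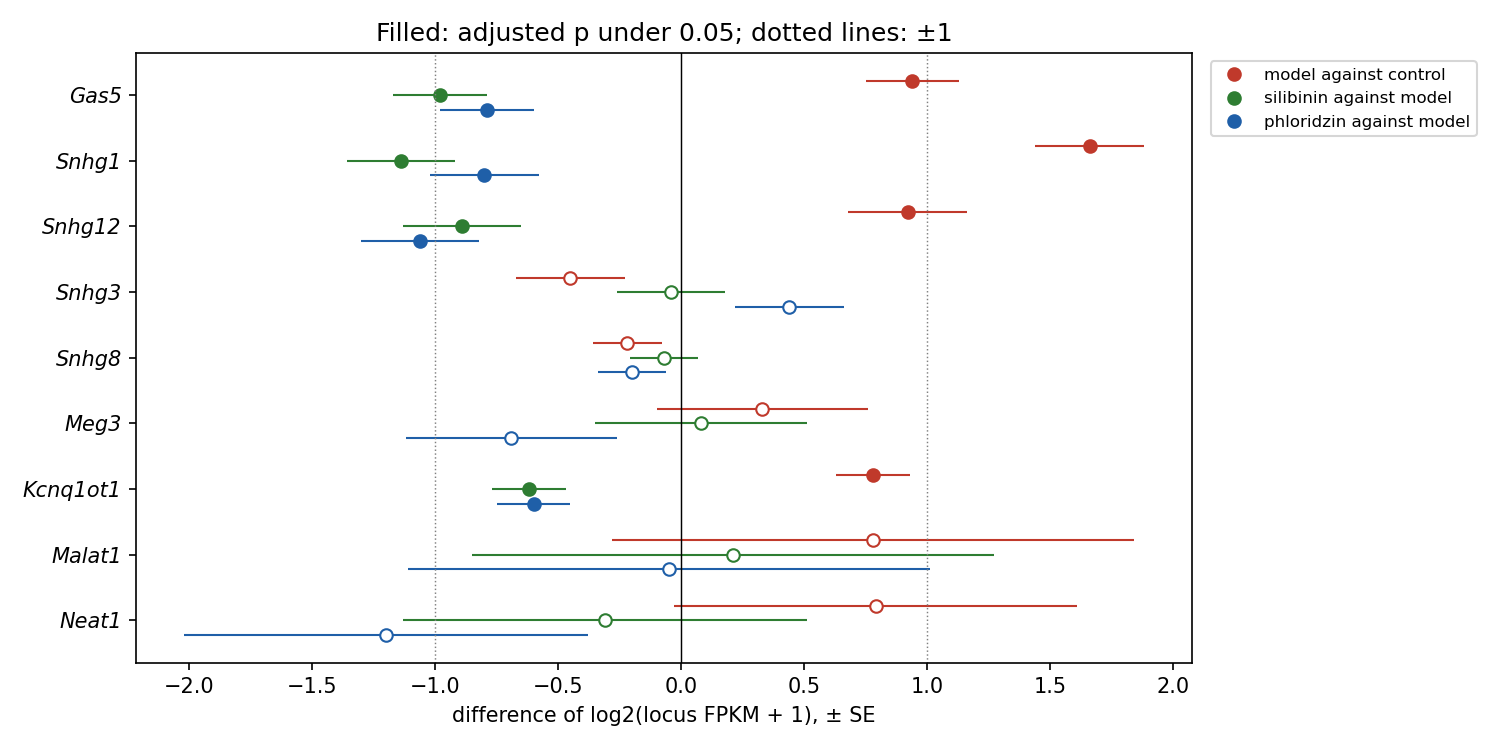
Difference of log2(locus FPKM + 1) on the horizontal axis (± SE, 3 livers a group) for 9 loci in model against control (red), silibinin against model (green) and phloridzin against model (blue), with filled points at an adjusted p under 0.05 in limma and dotted lines at -1 and 1. Gas5, Snhg1, Snhg12 and Kcnq1ot1 are filled in the 3 comparisons. With median-ratio scaling Snhg12 loses model against control and silibinin against model, Kcnq1ot1 loses both drug comparisons, and Snhg1 loses phloridzin against model. Snhg3 and Snhg8 then pass as lower in the model. In its single highest transcript Kcnq1ot1 passes in none of the 3 comparisons, and its sign turns.

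Gas5 (chr1:161034422-161038539, plus strand, GRCm38) hosts several snoRNAs, and its spliced RNA accumulates when growth stops. In locus FPKM it stood at 7.55, 7.21 and 4.37 in the controls, 15.1, 12.2 and 11.6 in the model livers, 6.41, 5.96 and 5.76 in the silibinin livers and 8.38, 6.36 and 6.54 in the phloridzin livers. Each model liver was above each of the other 9 livers, and the control, silibinin and phloridzin livers overlapped. Between 449 and 1180 fragments lay behind a value. The mean was 2.03-fold higher in the model than in the controls, and the difference of log2(locus FPKM + 1) was 0.94 ± 0.19 (SE, n = 3 and 3), with an adjusted p of 0.00375 in limma. Relative to the median of all genes it was 0.60.

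Against the model, Gas5 fell by 0.98 (± 0.19, adjusted p = 0.0074) with silibinin and by 0.79 (adjusted p = 0.0213) with phloridzin on the scale of log2(locus FPKM + 1). Relative to the median of all genes these were -0.83 and -0.68. The Ensembl transcript of Gas5, under the filter and not tested, ran otherwise, with means of 0.226, 0.26, 0.508 and 0.687 FPKM in the control, model, silibinin and phloridzin groups, the last from 1.39 in phloridzin 1 and 0.243 and 0.426 in the others. Against the controls the silibinin and phloridzin livers differed by -0.04 (adjusted p = 0.94) and 0.16 (adjusted p = 0.664). Leaving out any 1 of the 12 livers kept Gas5 as higher in model against control and lower in silibinin against model, at 0.0161 and 0.029 or less in adjusted p. It was then also called, as its size passed 1, in model against control without control 1 (1.06), control 2 (1.04) or model 3 (1.01), and in silibinin against model without model 2 (-1.02), model 3 (-1.05) or silibinin 1 (-1.02). In phloridzin against model Gas5 did not pass without model 1 (-0.68, adjusted p = 0.0766), model 2 (-0.83, 0.0529), phloridzin 2 (-0.72, 0.0801) or phloridzin 3 (-0.74, 0.0697). It also did not pass in a fit of the 2 groups alone (-0.79, 0.0544). In the single NONCODE transcript with the highest mean, the silibinin difference was -0.98 with an adjusted p of 0.0833.

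Snhg1 (chr19:8723475-8726443, plus strand) hosts a large cluster of C/D box snoRNAs, which guide methylation of ribosomal RNA. Its locus FPKM was 4.5, 5.31 and 3.43 in the controls, 15.8, 13.4 and 19.3 in the model livers, 6.46, 7.44 and 6.33 in the silibinin livers and 5.92, 9.65 and 11.5 in the phloridzin livers. The model livers were the highest, and every liver of the silibinin and phloridzin groups lay between the highest control and the lowest model liver. The fragment numbers ran from 281 to 1382. In the model the mean was 3.66-fold that of the controls, a difference of 1.66 ± 0.22 (SE, n = 3 and 3) in log2(locus FPKM + 1) with an adjusted p of 0.000496 in limma, or 1.33 relative to the median of all genes. Its Ensembl transcripts, also untested, had means of 0.0824, 0.0657, 0.0766 and 0.0606 FPKM in the order control, model, silibinin, phloridzin.

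Snhg1 fell by 1.14 (± 0.22, adjusted p = 0.0083) with silibinin and by 0.80 (adjusted p = 0.0393) with phloridzin, against the model and in log2(locus FPKM + 1). Relative to the median of all genes the values were -0.98 and -0.69. In phloridzin against control it was 0.86 higher (adjusted p = 0.0426), and in silibinin against control the difference was 0.53 (adjusted p = 0.203). Leaving out any 1 liver kept the model and silibinin calls of Snhg1. Phloridzin against model did not pass without control 1 (-0.80, adjusted p = 0.0563) or silibinin 1, 2 or 3 (-0.80 in each, with 0.0577, 0.0543 and 0.0521). It also did not pass without model 1, 2 or 3 (-0.81, -0.92 and -0.68, with 0.0921, 0.0548 and 0.119), phloridzin 1 (-0.56, 0.0753) or phloridzin 2 (-0.87, 0.0789). In phloridzin against control, leaving out any liver other than phloridzin 1 gave differences of 0.68 to 0.98. Their adjusted p lay between 0.0513 (model 3) and 0.132 (control 3). Without phloridzin 1 Snhg1 was called there (1.11, adjusted p = 0.0175). The 2 phloridzin differences of Snhg1 also did not pass with no filter (0.0622 against the model and 0.0702 against the controls), in fits of the 2 groups alone (0.125 and 0.134) or in the highest transcript (-0.69 with 0.216, and 1.28 with 0.0596).

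Snhg12 (chr4:132308623-132311024, plus strand) hosts H/ACA box snoRNAs, which guide pseudouridylation, and lies near Snhg3 on the other strand. Its locus FPKM was 1.28, 0.823 and 1.53 in the controls, 3.42, 2.62 and 3.43 in the model livers, 1.09, 1.41 and 1.21 in the silibinin livers and 0.282, 1.56 and 1.37 in the phloridzin livers. All 3 model livers were above the other 9, and phloridzin 1 was the lowest liver, at 37 fragments, where the others had at least 130. The mean was 2.61-fold higher in the model than in the controls, with a difference of 0.92 ± 0.24 (SE, n = 3 and 3) in log2(locus FPKM + 1), an adjusted p of 0.0146 in limma and 0.58 relative to the median of all genes.

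Snhg12 fell by 0.89 (± 0.24, adjusted p = 0.034) with silibinin and by 1.06 (adjusted p = 0.0174) with phloridzin against the model, on the same scale, or -0.74 and -0.95 relative to the median. Without phloridzin 1 the latter was -0.75 (adjusted p = 0.016), which passed and was not called. The model difference did not pass without control 2 (0.79, adjusted p = 0.0557) and was called without control 3 (1.02) or model 2 (1.01). The silibinin difference no longer passed without model 1, 2 or 3 (-0.84, -0.98 and -0.84, with 0.0917, 0.0569 and 0.0887). It also did not pass without silibinin 1, 2 or 3 (-0.84, -0.94 and -0.88, with 0.1, 0.0636 and 0.0892). The phloridzin one no longer passed without model 1 (-1.01, 0.0565) or model 3 (-1.01, 0.0524). With voom Snhg12 passed in none of the 3 at 0.98, -1.14 and -1.67 (adjusted p = 0.117, 0.133 and 0.0538), in a fit of phloridzin and model alone it did not pass (0.0895), and its silibinin difference also did not pass with 0.1 added before the logarithm (0.108) or with no filter (0.0643).

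The promoters of the 3 host genes that moved together are shown with that of Snhg8, a host gene that did not pass in the unscaled fit. They run from 250 bases before to 50 bases after a start site (RefSeq, GRCm38.p6), and 8 of the 10 genes had such a sequence. H19 and Neat1 had none. Capitals mark matches to TATANA, the letters of a TATA box with N as any base, and to TGACGTCA, a cyclic AMP response element, each searched on both strands.
Gas5, chr1:161034916-161035215, plus strand: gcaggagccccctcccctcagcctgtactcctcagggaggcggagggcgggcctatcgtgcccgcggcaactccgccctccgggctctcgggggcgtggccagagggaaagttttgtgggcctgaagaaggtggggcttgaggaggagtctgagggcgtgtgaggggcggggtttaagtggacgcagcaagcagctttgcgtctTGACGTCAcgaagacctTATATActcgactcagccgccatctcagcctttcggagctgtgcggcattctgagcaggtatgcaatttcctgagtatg
Snhg1, chr19:8723237-8723536, plus strand: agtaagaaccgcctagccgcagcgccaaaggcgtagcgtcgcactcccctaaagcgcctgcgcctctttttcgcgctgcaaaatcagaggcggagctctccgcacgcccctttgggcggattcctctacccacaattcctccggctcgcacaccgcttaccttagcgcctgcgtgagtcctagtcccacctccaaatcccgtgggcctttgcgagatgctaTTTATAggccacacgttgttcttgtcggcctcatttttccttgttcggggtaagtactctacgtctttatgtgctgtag
Snhg12, chr4:132308428-132308727, plus strand: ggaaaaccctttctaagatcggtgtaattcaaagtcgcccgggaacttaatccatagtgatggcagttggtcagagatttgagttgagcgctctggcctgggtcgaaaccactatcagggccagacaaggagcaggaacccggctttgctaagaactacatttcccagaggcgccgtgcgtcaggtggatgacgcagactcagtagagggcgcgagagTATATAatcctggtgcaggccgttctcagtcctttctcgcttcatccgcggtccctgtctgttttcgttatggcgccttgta
Snhg8, chr3:123508287-123508586, minus strand: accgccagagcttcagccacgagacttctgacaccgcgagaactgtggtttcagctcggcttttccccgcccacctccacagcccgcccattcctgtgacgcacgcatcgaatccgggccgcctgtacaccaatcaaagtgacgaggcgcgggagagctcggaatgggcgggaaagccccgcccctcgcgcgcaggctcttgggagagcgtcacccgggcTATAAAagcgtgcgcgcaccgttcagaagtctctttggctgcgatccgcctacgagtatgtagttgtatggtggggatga

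Gas5, at the second of its listed start sites, matched the TATA letters at position -29 and the cyclic AMP element at -46. Snhg12 matched the TATA letters at -32 and Snhg8 at -30, while Snhg1 matched at -29 only on the other strand. In Snhg3 a match lay at 23 bases after the start, and Meg3 had matches to the TATA letters between -29 and -25 and to the cyclic AMP element at -57. Among 32851 promoters of this length, 24.7% held the TATA letters on either strand, 5.53% held them between 15 and 55 bases before the start, and 1.8% held the cyclic AMP element. CACGTG, an E-box found in 7.2% of all promoters, and TGATGNAA, an amino acid response element found in 4.0%, matched in none of the 8 genes. The matches are a description of the sequence, and Snhg8 carries the TATA letters as Gas5 and Snhg12 do.

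Snhg3 (chr4:132348014-132353686, minus strand) and Snhg8 (chr3:123507552-123508404, minus strand) host H/ACA snoRNAs. Snhg3 stood at 26.9, 20.8 and 17.9 locus FPKM in the controls, 16.1, 10.7 and 21.6 in the model livers, 14.2, 15.0 and 16.1 in the silibinin livers and 21.3, 21.1 and 22.2 in the phloridzin livers. These rest on 394 to 754 fragments, and the silibinin and phloridzin livers did not overlap while the model livers overlapped both groups. The difference in log2(locus FPKM + 1) was -0.45 ± 0.22 (adjusted p = 0.131) in model against control, or -0.79 relative to the median of all genes. It was -0.67 (adjusted p = 0.0302) without model 3, and -0.91 (adjusted p = 0.0395) in the single highest transcript.

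Snhg8 ran at 3.09, 3.56 and 3.45 locus FPKM in the controls and 2.08, 3.2 and 3.09 in the model livers. It was at 2.64, 2.79 and 2.33 in the silibinin livers and 2.35, 2.15 and 2.31 in the phloridzin livers, with 204 to 398 fragments a value. Control and model livers overlapped, and the 6 livers of the silibinin and phloridzin groups were all under the lowest control. The difference of log2(locus FPKM + 1) was -0.22 ± 0.14 (adjusted p = 0.241) in model against control, -0.56 relative to the median, and -0.42 (adjusted p = 0.091) in phloridzin against control. Across the 12 livers the highest value was 1.71-fold the lowest in Snhg8 and 2.51-fold in Snhg3, against 3.47-fold in Gas5, 5.61-fold in Snhg1 and 12.2-fold in Snhg12, the last with its lowest value, 0.282, in phloridzin 1 and no other under 0.823.

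**Figure D3:**
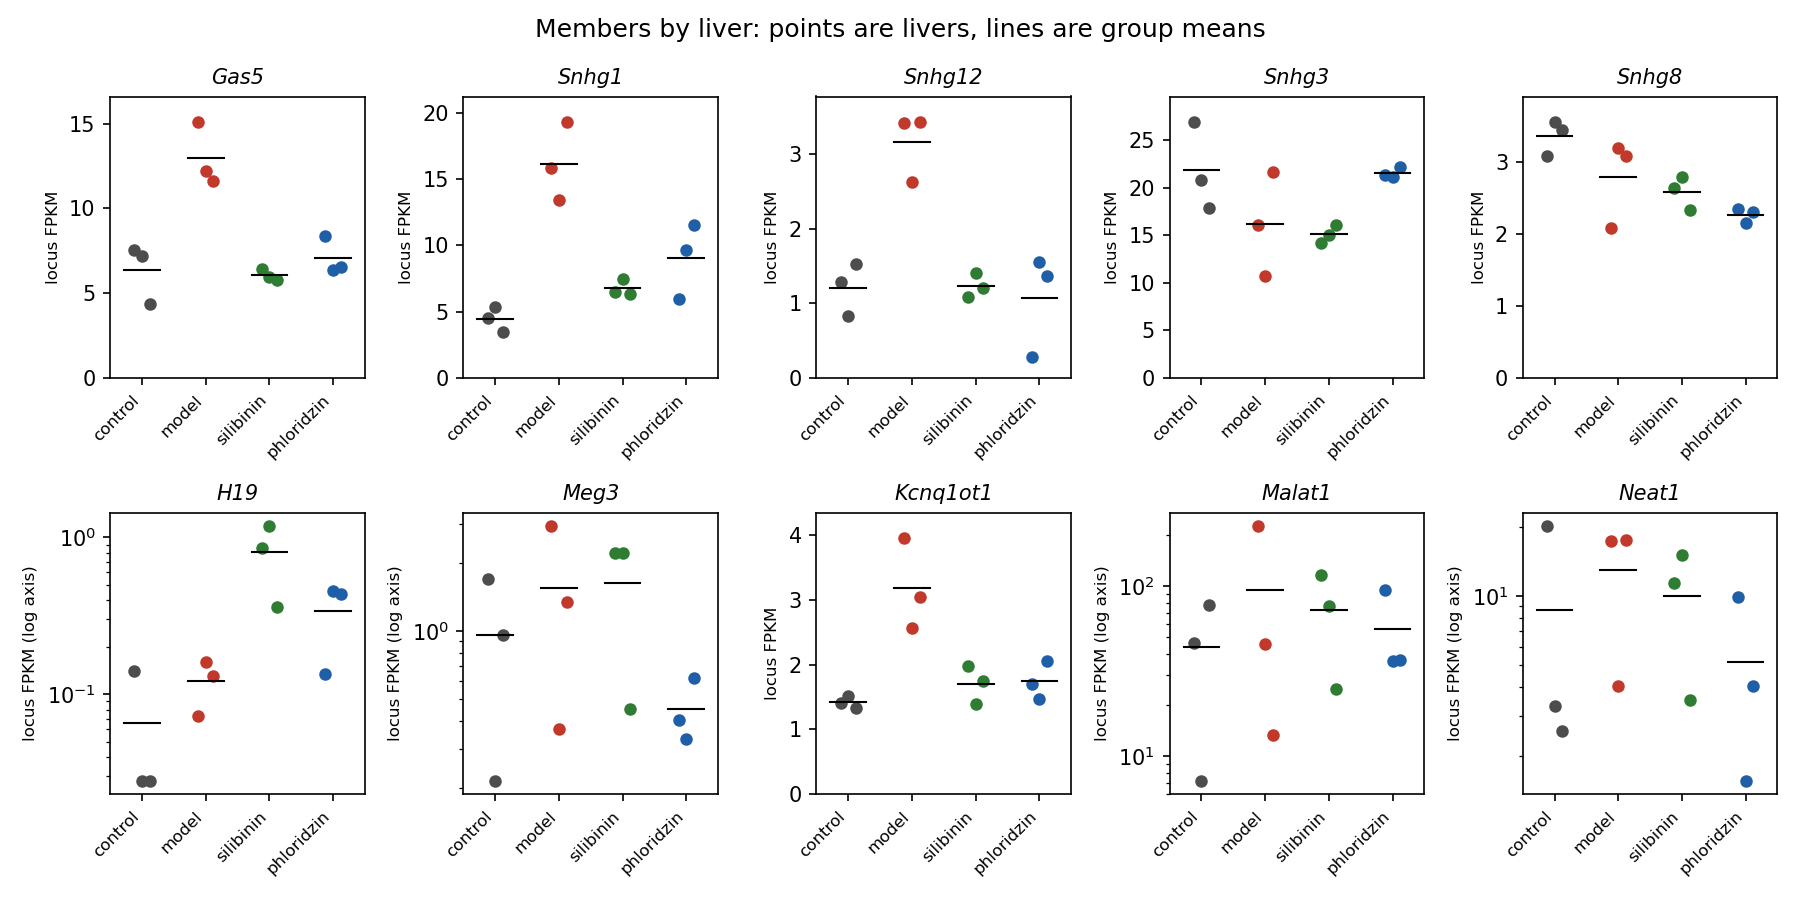
Locus FPKM (vertical axis, on a log axis for H19, Meg3, Malat1 and Neat1) of the 10 genes in each of the 12 livers by group, with points for livers and lines for group means. The model livers are above the 9 others in Gas5, Snhg1, Snhg12 and Kcnq1ot1 in these unscaled values. Unscaled, 34.9% of all genes passed in model against control. Scaling by median ratios ends the pass of Snhg12 against the controls. Malat1 spans 7.12 to 228 locus FPKM.

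Of the snoRNAs inside these host genes, the table lists a few that are near the length limit of such libraries. Snora24 lies in introns of 2 of the 3 annotated Snhg8 transcripts and in an exon of the other (chr3:123507937-123508066, minus strand), and Snora61 in introns of 5 of the 10 of Snhg12 and in exons of 4 (chr4:132310240-132310369, plus strand). Both are shown because their values differ between groups, with the ACA box that ends this class in capitals, 3 bases from the end. The sequences are those of the GENCODE M21 transcripts.
Snora24: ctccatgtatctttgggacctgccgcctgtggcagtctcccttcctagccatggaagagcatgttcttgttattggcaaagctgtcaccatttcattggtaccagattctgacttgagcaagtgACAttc
Snora61: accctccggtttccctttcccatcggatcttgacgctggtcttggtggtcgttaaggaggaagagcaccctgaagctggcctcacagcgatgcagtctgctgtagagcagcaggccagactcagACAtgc

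Snora24 stood at 2.71, 4.11 and 1.4 FPKM in the controls, 5.52, 5.84 and 5.22 in the model livers, 3.1, 2.84 and 3.35 in the silibinin livers and 3.01, 3.08 and 2.66 in the phloridzin livers, from 20 to 77 fragments. The 3 model livers were the highest. It rose by 0.87 ± 0.22 (adjusted p = 0.0126) in log2(FPKM + 1) in the model, where its host Snhg8 did not, and reads of an exon shared with the host cannot be told apart from it. The drug differences were -0.67 (adjusted p = 0.0694) for silibinin and -0.74 (adjusted p = 0.0532) for phloridzin. When Snora24 was added to the locus sum of Snhg8, the difference of Snhg8 turned to 0.41 (adjusted p = 0.0477) in model against control and was -0.59 (adjusted p = 0.023) in phloridzin against model.

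Snora61 was at 3.14, 0.709 and 1.26 FPKM in the controls, 2.85, 3.03 and 3.15 in the model livers, 0.937, 1.87 and 1.12 in the silibinin livers and 0.828, 1.25 and 0.859 in the phloridzin livers, from 10 to 43 fragments. Control 1 overlapped the model livers. The phloridzin difference from the model was -1.03 ± 0.28 (adjusted p = 0.0362), which was called but did not pass without phloridzin 1 (-0.97, adjusted p = 0.071), and that of the model from the controls was 0.67 (adjusted p = 0.0846). Snora16a, also in Snhg12, fell by 0.92 (adjusted p = 0.027) with silibinin against the model. Its main transcript had 4 to 38 fragments. The difference was 0.35 (adjusted p = 0.269) in model against control and -0.47 (adjusted p = 0.225) in phloridzin against model, with overlapping livers. Snord22 of Snhg1 and Snora44 of Snhg12 had 5 fragments or fewer in each liver.

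H19 (chr7:142575529-142578143, minus strand) is the maternally expressed RNA beside Igf2 and is high in fetal liver. It is also the precursor of miR-675, whose mature forms (RefSeq, GRCm38.p6, minus strand, seeds at bases 2 to 8 in capitals) are shown because they lie within H19.
miR-675-5p, chr7:142577112-142577133: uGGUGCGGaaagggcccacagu
miR-675-3p, chr7:142577078-142577099: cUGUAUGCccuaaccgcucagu

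In locus FPKM, H19 was at 0.141, 0.0282 and 0.0279 in the controls and 0.0731, 0.16 and 0.13 in the model livers. It was at 0.855, 1.19 and 0.361 in the silibinin livers and 0.134, 0.457 and 0.433 in the phloridzin livers. The silibinin livers were above all control and model livers, and the lowest of them was below 2 of the phloridzin livers. Behind these values were 18, 8 and 8 fragments in the controls, 16, 40 and 34 in the model, 120, 195 and 81 with silibinin and 28, 92 and 57 with phloridzin. With no filter on low values, a fit in which H19 could be tested, the difference of log2(locus FPKM + 1) was 0.66 ± 0.16 (adjusted p = 0.0314) in silibinin against model and 0.73 (adjusted p = 0.0473) in silibinin against control. It was 0.25 (adjusted p = 0.437) in phloridzin against model, -0.41 (adjusted p = 1.0) in phloridzin against silibinin and 0.07 (adjusted p = 0.813) in model against control. Igf2, the growth factor gene next to H19, was between 0.0 and 0.33 FPKM in every liver.

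Meg3 (chr12:109541001-109571726, plus strand) is the maternally expressed RNA of the Dlk1-Dio3 domain. It stood at 1.7, 0.215 and 0.957 locus FPKM in the controls, 2.94, 0.368 and 1.35 in the model livers, 2.22, 2.21 and 0.452 in the silibinin livers and 0.401, 0.332 and 0.621 in the phloridzin livers. Livers of 1 group differed by up to 7.98-fold and the groups overlapped. The difference in log2(locus FPKM + 1) was 0.33 ± 0.43 (adjusted p = 0.582) in model against control, 0.08 (adjusted p = 0.925) in silibinin against model and -0.69 (adjusted p = 0.331) in phloridzin against model. Rian, transcribed from the same domain, was at 1.75, 0.185 and 0.814 FPKM in the controls, 1.79, 0.452 and 0.537 in the model, 3.87, 5.54 and 0.453 with silibinin and 0.899, 0.486 and 0.408 with phloridzin. Control 2, model 2 and silibinin 3 were the lowest of their groups in both Meg3 and Rian, while in the phloridzin group these were phloridzin 2 in Meg3 and phloridzin 3 in Rian. Mirg, a microRNA host of the domain, was between 0.0874 and 0.791 locus FPKM and under the filter. Dlk1, the paternally expressed coding gene of the domain, had a mean of 0.0304 FPKM.

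Kcnq1ot1 (chr7:143203458-143296549, minus strand) is the paternally expressed antisense RNA of Kcnq1 that silences neighbouring genes, Cdkn1c among them, on its own chromosome. Its locus FPKM was 1.41, 1.51 and 1.33 in the controls, 3.95, 2.56 and 3.05 in the model livers, 1.98, 1.39 and 1.75 in the silibinin livers and 1.7, 1.47 and 2.06 in the phloridzin livers. Every model liver was above the other 9. The mean was 2.25-fold higher in the model than in the controls, and the difference of log2(locus FPKM + 1) was 0.78 ± 0.15 (SE, n = 3 and 3) with an adjusted p of 0.00308 in limma, or 0.44 relative to the median of all genes. It fell by 0.62 (adjusted p = 0.0198) with silibinin and by 0.60 (adjusted p = 0.0254) with phloridzin, or -0.47 and -0.49 relative to the median. The silibinin difference did not pass without model 1 (-0.50, adjusted p = 0.0643), silibinin 2 (-0.54, 0.0709) or silibinin 3 (-0.64, 0.0514). The phloridzin one did not pass without model 1 (-0.48, 0.0823), model 3 (-0.62, 0.056) or phloridzin 2 (-0.53, 0.0958). In fits of the 2 groups alone neither passed (0.0667 and 0.108).

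The sum for Kcnq1ot1 joins transcripts of very different length. In control 1, model 1, model 2 and silibinin 2 nearly all of it lay in a NONCODE transcript over chr7:143212155-143296549. In the other 8 livers it lay in one of 4731 bases at chr7:143293721-143298451, which reaches past the annotated start of Kcnq1ot1 at 143296549. A single transcript held 98.1% or more of the sum in each liver. FPKM divides by length, so the 3.95 of model 1 corresponds to about 18262 fragments and the 3.05 of model 3 to 1446. The length of the long transcript could not be recovered with certainty, and 86.8% of the fragments of the locus rest on it, so no voom value is given. In the single transcript with the highest mean the direction turned in the 3 comparisons, at -0.18 (adjusted p = 0.86), 0.33 (adjusted p = 0.798) and 0.77 (adjusted p = 0.499). The difference of Kcnq1ot1 thus changes with the transcripts that are read.

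Kcnq1 and Cdkn1c, the neighbours of Kcnq1ot1, were read on their own Ensembl transcripts. Kcnq1, a potassium channel gene, was at 0.402, 0.412 and 0.455 FPKM in the controls, 1.33, 1.22 and 0.578 in the model, 1.1, 1.1 and 0.486 with silibinin and 1.01, 1.15 and 0.5 with phloridzin, a model difference of 0.50 in log2(FPKM + 1) with an adjusted p of 0.0714. Cdkn1c, an inhibitor of the cell cycle, was at 1.19, 1.22 and 0.702 FPKM in the controls, 1.65, 1.27 and 1.43 in the model, 1.86, 1.65 and 1.88 with silibinin and 2.31, 2.5 and 2.79 with phloridzin. The phloridzin livers were the highest of the 12. Cdkn1c rose by 0.53 (adjusted p = 0.0267) in phloridzin against model and by 0.80 (adjusted p = 0.0085) in phloridzin against control.

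Malat1 (chr19:5795690-5802672, minus strand) had the highest mean level of the 10 genes. Its locus FPKM was 46.7, 7.12 and 77.3 in the controls, 228, 45.8 and 13.3 in the model livers, 117, 76.5 and 24.9 in the silibinin livers and 95.3, 36.6 and 36.8 in the phloridzin livers. The highest liver was 32.1-fold above the lowest, and within groups the spread was 10.8-, 17.2-, 4.7- and 2.6-fold in the order control, model, silibinin, phloridzin. At least 4949 fragments lay behind each value. The difference in log2(locus FPKM + 1) was 0.78 ± 1.06 (adjusted p = 0.6) in model against control, 0.21 (adjusted p = 0.922) in silibinin against model and -0.05 (adjusted p = 0.981) in phloridzin against model. At this spread a difference as large as that of Gas5 could not be detected.

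Neat1 (chr19:5824708-5845478, minus strand), next to Malat1, stood at 20.3, 3.29 and 2.57 locus FPKM in the controls and 17.3, 4.03 and 17.5 in the model livers. It was at 11.4, 15.1 and 3.5 in the silibinin livers and 9.85, 1.55 and 4.03 in the phloridzin livers, from 2396 to 36107 fragments. All 4 groups overlapped, and within a group the livers differed by 4.31- to 7.89-fold. The differences in log2(locus FPKM + 1) were 0.79 ± 0.82 (adjusted p = 0.477), -0.31 (adjusted p = 0.843) and -1.20 (adjusted p = 0.378) in model against control, silibinin against model and phloridzin against model. On the opposite strand of Neat1 the table lists a mean of 18.4 FPKM, with 81.4 in model 1 and 8.75 to 16.6 in the other 11 livers. On that of Malat1 the mean was 9.19 FPKM and on that of Kcnq1ot1 1.36. Gm27505, a short RNA of 110 bases inside an exon of 3 of the 4 annotated Neat1 transcripts, was at 212 FPKM in model 1, at 0.179 in model 2 and 0.174 in phloridzin 2, and between 30.2 and 49.0 in the other livers.

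**Figure D4:**
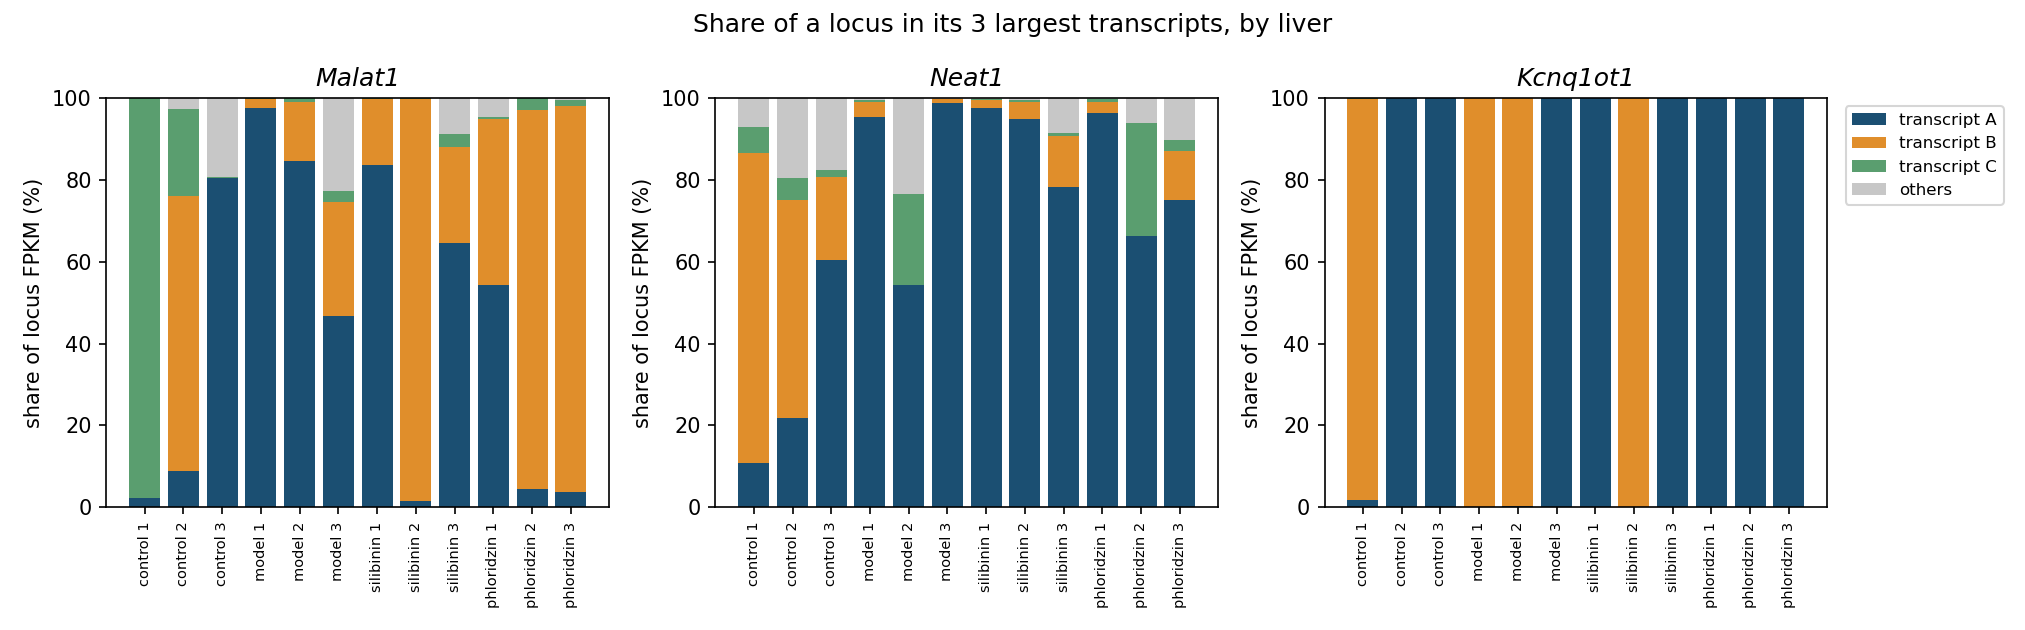
Share of the locus FPKM (vertical axis, %) in the 3 transcripts with the largest mean share (A, B and C, ranked within each gene) and in the others, for Malat1, Neat1 and Kcnq1ot1 in each of the 12 livers. A single transcript holds 46.8 to 98.1% of Malat1, 53.2 to 98.7% of Neat1 and 98.1 to 100% of Kcnq1ot1, and it is not the same transcript in every liver.

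The plot of transcript shares shows how the locus FPKM of 3 long, little-spliced RNAs was divided. In Malat1, 3 transcripts led in 1 liver or more, and in Neat1 and Kcnq1ot1, 2. Livers of 1 group were led by different Malat1 transcripts in the control, silibinin and phloridzin groups. Among the spliced host genes, 1 transcript led Snhg3 in all livers, at 23.3 to 52.7% of its sum, while 3 led Gas5 and 4 led Snhg12 in at least 1 liver.

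The other genes of these pathways are described by lists, with counts at an adjusted p under 0.05 in limma. Of 18 other host genes taken as noncoding, 13 were tested, and 7 rose and 0 fell in model against control, with a median difference of 0.56 in log2(FPKM + 1) against 0.34 over all genes, of which 34.9% passed. The 7 were Dancr, Snhg5, Snhg6, Snhg15, Snhg17, Snhg18 and Zfas1, and with median-ratio scaling 5 rose, without Dancr and Snhg17. In silibinin against model 7 fell (6 scaled) with a median of -0.62 against -0.15 over all genes, of which 14.1% passed. Snhg11, which was among those that fell unscaled, is annotated as protein-coding in GENCODE M21. In phloridzin against model 5 fell (2 scaled, 4 without phloridzin 1), with a median of -0.49 against -0.11 over all genes, of which 13.0% passed.

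Zfas1, a host of C/D box snoRNAs, stood at 4.41, 5.71 and 3.64 locus FPKM in the controls, 13.6, 8.73 and 10.5 in the model, 4.55, 5.31 and 5.17 with silibinin and 9.94, 8.32 and 8.56 with phloridzin. Model and phloridzin livers overlapped, and all 6 were above the controls and the silibinin livers. It rose by 1.09 (adjusted p = 0.00132) in the model and fell by 0.97 (adjusted p = 0.00578) with silibinin, and in phloridzin against model the difference was -0.25 (adjusted p = 0.406). Phloridzin against silibinin, the test of the difference between the drugs, gave 0.72 ± 0.18 for Zfas1, which was under an unadjusted p of 0.05 with an adjusted p of 1.0 in limma.

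Snhg6, host of a C/D box snoRNA, was at 4.29, 5.19 and 5.59 locus FPKM in the controls, 11.0, 10.6 and 12.5 in the model, 5.51, 6.05 and 6.18 with silibinin and 7.11, 7.03 and 8.56 with phloridzin. The model livers were the highest, and the phloridzin livers lay above the other 6. Its differences in log2(FPKM + 1) were 1.04 (adjusted p = 0.000304) in model against control, -0.84 (adjusted p = 0.00207) in silibinin against model and -0.53 (adjusted p = 0.0211) in phloridzin against model, the last not passing when scaled (-0.37, adjusted p = 0.14). Snhg15 rose by 1.03 in the model (adjusted p = 0.00193) and fell by 0.88 with silibinin (adjusted p = 0.00962) and by 0.70 with phloridzin (adjusted p = 0.0292). For Snhg5 the 3 values were 0.87 (adjusted p = 0.00387), -0.85 (0.00993) and -0.64 (0.0364, and 0.0565 without phloridzin 1). Scaled by median ratios, Snhg15 (adjusted p = 0.065) and Snhg5 (0.0848) did not pass with phloridzin. Dancr, with a level of 0.421 to 0.772 locus FPKM in the controls, 0.991 to 1.47 in the model, 0.316 to 0.63 with silibinin and 0.264 to 0.53 with phloridzin, changed by 0.56 (adjusted p = 0.0126; 0.0818 scaled), -0.62 (0.0159) and -0.75 (0.0074). Its silibinin and phloridzin means were under 0.5 FPKM, so the model livers carried it past the filter, and with no filter the 3 differences also passed.

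Genes of proteins that bind or assemble snoRNAs were listed next. Of 16 such genes tested, 10 rose in model against control (5 when scaled), and 6 fell with silibinin (5 scaled) and 6 with phloridzin (4 scaled), or 7 with each drug without phloridzin 1, with medians of 0.65, -0.45 and -0.48. Over all genes 34.9%, 14.1% and 13.0% passed, with medians of 0.34, -0.15 and -0.11. Nop56, a core protein of C/D snoRNPs, stood at 2.07, 1.78 and 0.938 FPKM in the controls, 11.9, 15.0 and 5.56 in the model, 1.28, 1.83 and 1.14 with silibinin and 1.86, 1.58 and 1.77 with phloridzin. Its lowest model liver was above the other 9 livers. The differences of Nop56 in log2(FPKM + 1) were 2.12 (adjusted p = 0.000599), -2.20 (0.00108) and -2.01 (0.00196). Nop58, its partner in the same particle, changed by 1.49 (adjusted p = 0.0048), -1.56 (0.00894) and -1.61 (0.00824), and Gar1, of H/ACA particles, by 1.08 (0.00274), -0.85 (0.0187) and -1.09 (0.00664).

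**Figure D5:**
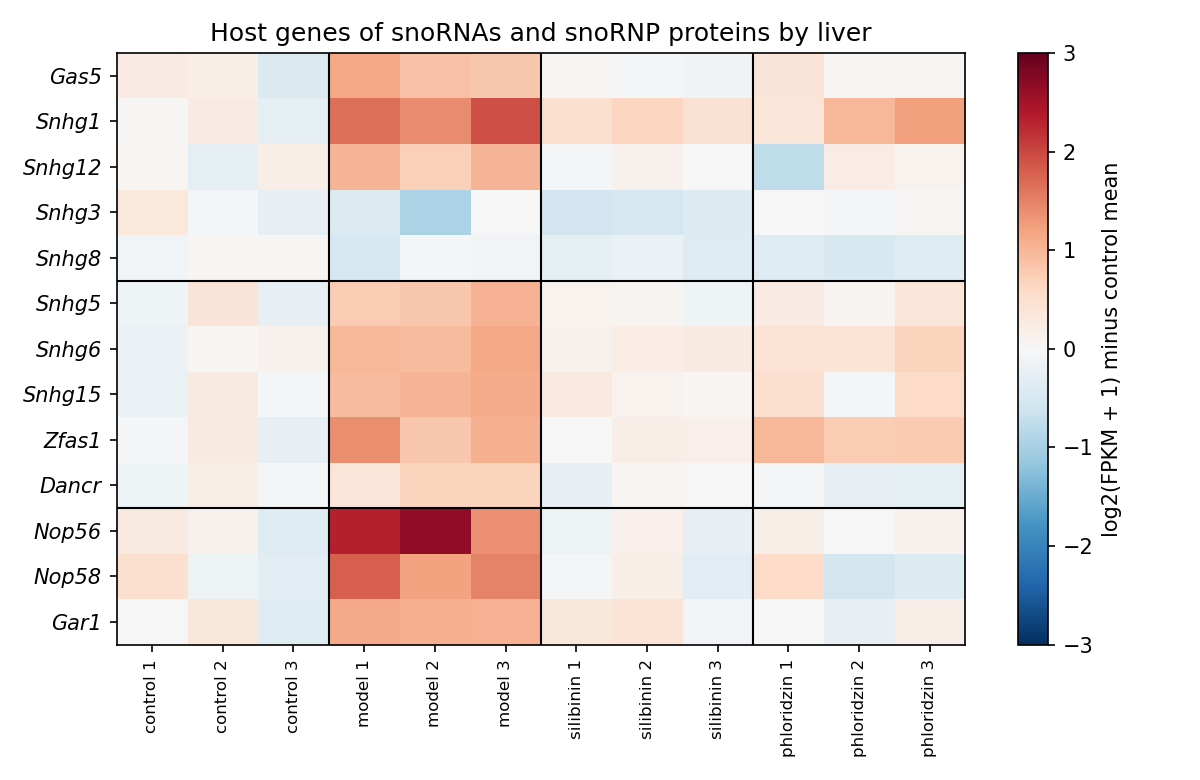
Colour gives log2(FPKM + 1) minus the mean of the controls for noncoding snoRNA host genes and 3 snoRNP proteins (vertical axis) in each of the 12 livers (horizontal axis), unscaled. The model livers are above the control mean in Gas5, Snhg1, Snhg12, Snhg5, Snhg6, Snhg15, Zfas1, Dancr, Nop56, Nop58 and Gar1, and with median-ratio scaling Snhg12 and Dancr do not pass while Snhg3 and Snhg8 pass as lower.

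The map of host genes and snoRNP proteins by liver shows the phloridzin livers above the controls and overlapping the model in Zfas1. They lie between control and model in Snhg1 and Snhg6, and near the controls in Nop56. Of 30 coding host genes, mostly of ribosomal proteins, 29 were tested, and 10 rose in the model (5 scaled) with a median of 0.52 (0.07 scaled) against 0.34 over all genes, of which 34.9% passed, so that the share in this list was near that of all genes. With each drug 2 fell against the model, Ncl and Nop56, where 14.1% (silibinin) and 13.0% (phloridzin) of all genes passed. Without phloridzin 1, 13 rose in the model and 5 fell with silibinin, with Rack1, Rpl12 and Rps12 added. Among them Rpl12 rose by 1.22 (adjusted p = 0.00131), Rack1 by 1.20 (0.00355) and Rpl3 by 1.01 (0.00403) in the model, and Rpl3 was 1.06 higher in phloridzin against control (adjusted p = 0.0151, and 0.84 without phloridzin 1). Rpl5 (1.37, adjusted p = 0.0323) and Rps12 (1.04, 0.016) did not pass when scaled (0.124 and 0.119).

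Nonsense-mediated decay is known to degrade spliced Gas5 and other host RNAs. Of its 20 genes, 8 rose in the model, while after median-ratio scaling 0 rose or fell in limma (3 under an unadjusted p of 0.05), with medians of 0.50 and 0.14. Of all genes 34.9% passed in this comparison unscaled, with a median of 0.34. Fewer of all genes passed when scaled, at the counts given above. With silibinin 7 fell against the model (2 scaled) and with phloridzin 2 (1 scaled, 4 without phloridzin 1), where 14.1% and 13.0% of all genes passed. Nbas rose by 1.81 in the model (adjusted p = 0.0179, and 0.0509 scaled), and Smg6, the endonuclease of this decay, fell by 1.26 with silibinin (adjusted p = 0.0405, and 0.0871 scaled).

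Neat1 and Malat1 act with proteins of paraspeckles and speckles, of which 25 were tested. In the model 10 rose (3 scaled), and 5 fell with silibinin (3 scaled) and 4 with phloridzin (2 scaled), with medians of 0.47, -0.42 and -0.38. Of all genes 34.9%, 14.1% and 13.0% passed, and their medians were 0.34, -0.15 and -0.11. Without phloridzin 1, a fit for which no share of all genes is given, 11 of the list rose in the model. In that fit 6 fell with silibinin and 9 with phloridzin. Tra2b, a splicing factor of speckles, stood at 6.09, 5.91 and 6.65 FPKM in the controls, 18.0, 14.7 and 15.7 in the model, 6.49, 6.67 and 6.55 with silibinin and 7.91, 6.58 and 4.93 with phloridzin. Its model livers were above the other 9. Tra2b changed by 1.24 (adjusted p = 0.000281), -1.17 (0.000751) and -1.21 (0.000648) in log2(FPKM + 1). Sfpq, needed to build paraspeckles with Neat1, was at 7.53, 5.92 and 9.84 FPKM in the controls and 15.7, 20.5 and 17.8 in the model, a rise of 1.13 (adjusted p = 0.00163), and its drug differences were -0.50 (adjusted p = 0.108) and -0.45 (adjusted p = 0.157, and -0.62 with 0.0486 without phloridzin 1). Tra2a (1.34, adjusted p = 0.00164), Taf15 (0.74, 0.0318), Rnps1 (1.11, 0.0137) and Hnrnph1 (1.04, 0.017) also rose in the model, the last 3 not when scaled (0.207, 0.0722 and 0.12). Tra2a fell by 1.10 with silibinin (adjusted p = 0.0102) and Taf15 by 1.25 (0.00631) with silibinin and 0.92 (0.0274) with phloridzin. In phloridzin against model Tra2a differed by -0.41 (adjusted p = 0.274), and the livers overlapped. In phloridzin against control Tra2a was 0.93 higher (adjusted p = 0.0351). That rise did not pass when scaled (0.76, 0.0556) or without phloridzin 1 (0.72, 0.0982). Hnrnph1 differed by -0.93 in silibinin against model (adjusted p = 0.0525, and 0.0381 without phloridzin 1).

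Among imprinted genes and neighbours of H19, Meg3 and Kcnq1ot1, 21 of 32 were tested, and 8 rose in model against control (5 scaled) with a median of 0.38, near the 34.9% and 0.34 of all genes. With silibinin 1 fell, and with phloridzin 1 rose, Cdkn1c, and 1 fell, where 14.1% (silibinin) and 13.0% (phloridzin) of all genes passed. The gene that fell with both was Tssc4, a neighbour of Kcnq1ot1, at 3.26, 4.29 and 3.23 FPKM in the controls, 6.2, 5.0 and 10.4 in the model, 2.4, 2.27 and 2.45 with silibinin and 2.96, 2.21 and 2.57 with phloridzin. It changed by 0.79 (adjusted p = 0.0158, and 0.153 scaled), -1.23 (0.00455) and -1.15 (0.00653) in log2(FPKM + 1). Plagl1, which regulates other imprinted genes, rose by 1.17 in the model (adjusted p = 0.000573), and 4 imprinted genes were higher than in the controls with silibinin (6 without phloridzin 1) and 6 with phloridzin (3 without it), where 5.05% and 8.00% of all genes passed. Sgce rose by 1.37 (adjusted p = 0.00349) and Grb10, an adaptor of the insulin receptor, by 1.29 (0.000655). Mest (0.65, adjusted p = 0.025) did not pass when scaled (0.145), and Lsp1 rose by 0.98 (0.0062).

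Genes of fetal liver and repressors of H19 and Afp were tested for 8 of 15. In the model 6 rose (3 scaled) with a median of 1.01, against 34.9% and 0.34 for all genes. In limma 0 passed in silibinin against model (3 under an unadjusted p of 0.05) or phloridzin against model (1 under it, and 1 fell without phloridzin 1). The medians there were -0.31 and -0.30. Of all genes 14.1% and 13.0% passed in these drug comparisons, with medians of -0.15 and -0.11. Afp, the fetal serum protein gene, was at 0.81, 0.665 and 0.287 FPKM in the controls, 3.74, 2.94 and 9.42 in the model, 6.61, 9.48 and 0.964 with silibinin and 5.81, 0.995 and 1.12 with phloridzin, a rise of 1.88 in the model (adjusted p = 0.0448, and 0.0781 scaled). Zhx2, known to repress H19 and Afp in adult liver, rose by 0.52 in the model (adjusted p = 0.0328, and 0.609 scaled). Gpc3 rose by 1.64 (adjusted p = 0.00511), Lpl by 2.12 (0.0133) and Igf2bp2, which binds H19 and other RNAs, by 1.45 (0.00548). Igf2bp2 differed by -0.98 in phloridzin against model (adjusted p = 0.0649), and by -1.26 without phloridzin 1 (adjusted p = 0.0213).

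Of 26 other named lncRNAs, 14 were tested, and 4 rose in the model (3 rose and 1 fell when scaled), with a median of 0.14 against 0.34 over all genes, of which 34.9% passed. In silibinin against model 0 passed in limma (4 under an unadjusted p of 0.05, and 1 rose when scaled), where 14.1% of all genes passed. Without phloridzin 1, Pvt1 fell there. In phloridzin against model 3 fell and 1 rose (1 and 1 scaled, 4 and 0 without phloridzin 1), where 13.0% of all genes passed. Those that passed unscaled were Airn, Ftx, Pvt1 and Rpph1, the last annotated as a ribozyme in GENCODE M21. Airn, the imprinted antisense RNA of Igf2r, stood at 4.56, 4.13 and 4.29 locus FPKM in the controls, 24.0, 13.3 and 14.7 in the model, 13.6, 15.4 and 6.54 with silibinin and 10.4, 5.32 and 6.82 with phloridzin. All 9 CCl4 livers were above the controls, and the model and silibinin livers overlapped. It rose by 1.74 in the model (adjusted p = 0.00245) and fell by 1.10 with phloridzin (adjusted p = 0.0454, and 0.0576 scaled), with -0.54 (adjusted p = 0.297) for silibinin. The opposite strand of Airn held a mean of 12.5 FPKM, and RNA of the strands cannot be told apart here. Igf2r also rose in the model, though it did not pass when scaled. Pvt1, the RNA beside Myc, rose by 1.36 (adjusted p = 0.00203) and fell by 0.87 with phloridzin (adjusted p = 0.0382, and 0.0527 scaled). With silibinin its difference was -0.67 (adjusted p = 0.0896, and 0.0482 without phloridzin 1), and between the drugs -0.20 (adjusted p = 1.0).

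Markers of other liver cells were read in the same groups, and 34.9% of all genes passed in model against control. Of 12 stellate cell and myofibroblast markers tested, 10 rose in that comparison (7 scaled), and their sum, led by Dcn, was 91.0, 81.5 and 94.3 FPKM in the controls, 252, 247 and 280 in the model, 251, 285 and 140 with silibinin and 333, 200 and 175 with phloridzin. Of 10 macrophage markers, led by Lyz2, 5 rose (3 scaled), with sums of 142, 248 and 202, then 382, 590 and 519, then 462, 578 and 400, and last 719, 648 and 367 FPKM in the 4 groups. Against the model, 0 of these 22 markers passed in limma with silibinin (2 stellate and 0 macrophage markers under an unadjusted p of 0.05) and 1, Lrat, fell with phloridzin. Of all genes 14.1% and 13.0% passed in these comparisons. Without phloridzin 1, Lrat and Timp1 fell with silibinin. Lrat was at 3.97, 4.01 and 4.31 FPKM in the controls, 12.7, 11.9 and 14.9 in the model, 8.29, 10.9 and 6.42 with silibinin and 8.37, 5.75 and 7.03 with phloridzin, with each model liver above the other 9.

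Cholangiocyte markers (2 of 4 tested of 7 listed rose in the model, 1 when scaled, led by Spp1) had summed means of 15.6, 53.1, 42.9 and 37.2 FPKM in the order control, model, silibinin, phloridzin. Lymphocyte markers (2 of 5 tested of 8 rose, 1 when scaled, led by Ptprc) had 7.5, 23.6, 18.2 and 22.9 FPKM. Proliferation markers (2 of 8 rose, 2 scaled and 7 when phloridzin 1 was left out, led by Top2a) had 1.65, 17.9, 23.4 and 43.3 FPKM, the last carried by the 105 of phloridzin 1. Sinusoidal endothelial markers (0 of 8 passed in limma and 1 was under an unadjusted p of 0.05, while Fcgr2b fell when scaled, led by Clec4g) had 82.8, 91.3, 69.4 and 97.1 FPKM. Of the hepatocyte markers Cyp2e1 fell in the model and none rose. Without phloridzin 1, Ass1 rose with each drug against the model, and Tat fell with silibinin against the model and against the controls. No marker of the 7 lists was at 0 in all 12 livers. The part of these cell types in the changes of Gas5, Snhg1, Snhg12 and Kcnq1ot1 was not tested.

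For the 2 loci that were called, Snhg1 and Snhg12, the genes with the most similar pattern were sought over all genes tested, by the root-mean-square difference over the 12 livers of log2(FPKM + 1) after subtraction of the control mean. Snhg1 was closest to Dusp11, an RNA phosphatase (0.27), Pdgfb, a growth factor (0.27), and Rap1gap2, a GTPase activator (0.29). Dusp11 stood at 3.25, 5.45 and 3.36 FPKM in the controls, 13.8, 17.7 and 14.3 in the model, 4.55, 7.17 and 6.36 with silibinin and 4.32, 7.74 and 7.07 with phloridzin. Like Snhg1, it was highest in the 3 model livers. Snhg12 was closest to Srp72, of the signal recognition particle (0.19), Nrf1, a transcription factor of mitochondrial genes (0.21), and Cdk18, a kinase (0.22). These genes were picked for their likeness, which is a description.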

How the data were processed

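Total RNA of 12 mouse livers (Trizol, NEB Next Ultra kit, NovaSeq) was sequenced in 4 groups of 3. Per the labels, the authors converted reads with bcl2fastq, checked them with FastQC 0.11.5, aligned them to mm10 with HISAT2 2.1.0, assembled transcripts with StringTie 1.3.3b and tested with DESeq 1.28.0. The deposited values are FPKM, with no scaling between livers beyond library size, for 82136 Ensembl, 68303 NONCODE and 18991 assembled transcripts, the last without a position. Ensembl transcripts were placed with GENCODE M21, where 98.1% had the position given in the table.

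The 10 genes and the lists were chosen with earlier results of these data known. FPKM were summed per gene and liver over Ensembl transcripts with a symbol, and, chosen after the data were seen, over these and the NONCODE transcripts on the same strand for the 10 genes and 2 lists of noncoding genes. Genes with a mean of at least 0.5 FPKM were tested on log2(FPKM + 1) with limma 3.58.1 in R 4.3.3 (trend, all 12 livers in 1 fit, group as the only term, 6 comparisons, Benjamini-Hochberg over all genes tested). A gene is called at an adjusted p under 0.05 and a difference above 1 or below -1, and rose, fell or passed means the adjusted p alone. The fits were tested on simulated data with known changes. Each difference compares 3 and 3 livers unless stated, and its SE and p use the spread within all 4 groups of the fit.

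Library sizes were recovered as the fragment total that turns FPKM times length into whole numbers, and 98.2% of values lay within 0.05 fragments of one. Lengths of NONCODE transcripts were recovered the same way. In a check on 400 transcripts of known length, 381 were determined and 370 of these (97.1%) came within 2%. Named from the 8 lists (177 genes) are up to 6 called genes each, by the largest change, with neighbours and partners for context, and for each called locus the 3 genes most like it. Cell types were followed with 7 marker lists (63 genes). Alternatives were another pseudocount, other filters, median-ratio scaling, a replicate block, fits of 2 groups, the highest transcript, every overlapping transcript, voom, no fold cutoff and each liver left out. Assembled transcripts were left out of the sums, since they could not be assigned to a gene by position. Tables and figures were made with Python 3.11.15, numpy 2.4.6, pandas 2.3.3 and matplotlib 3.10.9.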

Additional observations from a re-analysis of the deposited data

Results flagged for a closer look

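The choice by Ensembl transcripts leaves out the NONCODE transcripts of the same loci, and in 4 genes these carried a signal above every control liver. For H19, the lowest silibinin liver had 0.219 FPKM in NONCODE transcripts, against 0.121 in the highest control. For Gas5 the lowest model liver had 11.4 FPKM, against 7.27 in the highest control. Snhg1 stood at 13.3 FPKM or more in the model, at 6.3 or more with silibinin and at 5.89 or more with phloridzin, where the highest control had 5.24. For Kcnq1ot1 the lowest model liver had 2.56 FPKM, against 1.51 in the highest control. Each was flagged because all 3 livers of a group lay above the highest control outside the Ensembl sums. No share of all genes under this rule is given, so the flags do not set these genes apart. At an adjusted p under 0.05 in limma, 34.9%, 5.05% and 8.00% of all genes passed in model, silibinin and phloridzin against control.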

How the results depend on the processing

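The 6 comparisons are given in the order model against control, silibinin against model, phloridzin against model, phloridzin against silibinin, silibinin against control and phloridzin against control. The cause of the changes below was not tested.

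On Ensembl transcripts 0 of the 10 genes were called in any comparison by limma. In model against control 1 was called with 0.1 added before the logarithm, every overlapping transcript, voom, no fold cutoff or NONCODE transcripts added. In silibinin against model 1 was called with 0.1 added, voom, no fold cutoff or NONCODE transcripts, and 2 with every overlapping transcript. In phloridzin against model 1 was called with every overlapping transcript, no fold cutoff or NONCODE transcripts.

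Of all genes, 1382, 526, 463, 3, 261 and 398 were called in the 6 comparisons. With 0.1 added there were 2596 in the first, 702 in phloridzin against model, 828 in the fifth and 1103 in the sixth. With voom there were 2535 in the first, 795 in the second, 688 in the fifth and 937 in the sixth. With no fold cutoff there were 4594, 1849 and 1691 in the first 3, and 661 and 1051 in the last 2. Median-ratio scaling gave 251 in the sixth. Fits of 2 groups in limma gave 0 in the fourth (445 under an unadjusted p of 0.05) and 143 in the sixth. The highest transcript of each gene gave 5 in the fourth, 117 in the fifth and 190 in the sixth. Leaving out each liver in turn gave 1 to 6 genes in the fourth, 101 to 400 in the fifth and 214 to 635 in the sixth.

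With locus FPKM, 4, 4, 4, 0, 0 and 1 of the loci passed at an adjusted p under 0.05. Voom gave 2 in each of the first 3. Median-ratio scaling gave 2 in the second comparison and in phloridzin against model. The highest transcript gave 1 in the second comparison and in phloridzin against model and 0 in the sixth (in limma 1 under an unadjusted p of 0.05). Fits of 2 groups in limma gave 0 in phloridzin against model (4 under an unadjusted p of 0.05) and in the sixth (2 under it). With no filter the fifth had 1, H19, and the sixth 0 in limma (2 under an unadjusted p of 0.05). Leaving out each liver gave 2 to 4 in the second, 0 to 4 in phloridzin against model and 0 to 1 in the sixth.

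Of the loci, 1, 1, 1, 0, 0 and 0 were called. With 0.1 added, 4 were called in the first and 2 in the second. Median-ratio scaling gave 0 in the second comparison and in phloridzin against model, and fits of 2 groups gave 0 in phloridzin against model. The highest transcript gave 2 in the first, every overlapping transcript 2 in the second, and voom 2 in the first and second. With no fold cutoff there were 4 in each of the first 3 and 1 in the sixth. Leaving out each liver gave 1 to 2 in the first and second, and 0 to 1 in phloridzin against model and in the sixth.

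The difference in log2(FPKM + 1) changed sign as follows, and of these values Snhg8 with every overlapping transcript alone had an adjusted p under 0.05, while in the fit as reported Kcnq1ot1 in the first 3 comparisons and Tra2a in the last had passed.

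With the highest transcript, model against control gave Kcnq1ot1 -0.18. Silibinin against model gave Kcnq1ot1 0.33, Malat1 -1.37, Plagl1 -0.04, Sgce -0.77 and Snhg3 0.23. Phloridzin against model gave Kcnq1ot1 0.77, Lpl 0.79, Rack1 0.03, Sgce 0.43 and Zfas1 0.10. Phloridzin against silibinin gave Gar1 0.27, Gas5 -0.26, Kcnq1 0.08 and Nop58 0.02. Phloridzin against silibinin gave Plagl1 0.03, Sgce 1.20, Snhg8 0.08 and Tra2a -0.76. Silibinin against control gave Gas5 0.24, Hnrnph1 -0.43 and Nop58 0.02. Phloridzin against control gave Gar1 0.27, Gas5 -0.02, Neat1 0.87, Nop58 0.04 and Tra2a -0.66.

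With median-ratio scaling, model against control gave Rian -0.17. Silibinin against model gave Afp 0.05, Gpc3 0.08, Snhg3 0.16 and Snhg8 0.09. Phloridzin against model gave Lpl 0.07, Malat1 0.12, Plagl1 0.11 and Sgce 0.15. Silibinin against control gave Hnrnph1 -0.11, Snhg12 -0.10, Snhg5 -0.12, Tra2b -0.13, Zfas1 -0.07 and Zhx2 -0.06. Phloridzin against control gave Gas5 -0.08, Nop56 -0.06, Tra2b -0.20 and Zhx2 -0.03.

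With voom, phloridzin against model gave Lpl 0.10 and Lsp1 -0.03. Phloridzin against silibinin gave Kcnq1 0.21, Nop58 0.44 and Tra2b 0.03. Silibinin against control gave Snhg12 -0.16 and Tra2b -0.19. Phloridzin against control gave Gar1 0.25, Neat1 0.44, Nop56 -0.02, Nop58 0.28 and Tra2b -0.16.

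With every overlapping transcript, model against control gave Neat1 -0.21 and Snhg8 0.41. Silibinin against model gave Neat1 0.22. Phloridzin against silibinin gave Snhg12 0.02. Silibinin against control gave Snhg12 -0.31. Phloridzin against control gave Snhg12 on Ensembl transcripts -0.29.

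Leaving out each liver in turn gave ranges on both sides of 0. In model against control these were Malat1 (-0.27 to 1.73), Meg3 (-0.05 to 0.71) and Rian (-0.28 to 0.33). In silibinin against model these were Afp (-0.58 to 0.62), Gpc3 (-0.44 to 0.35), Kcnq1 (-0.28 to 0.06), Lpl (-0.32 to 0.96) and Malat1 (-0.74 to 1.26). Further ranges there were Meg3 (-0.30 to 0.46), Neat1 (-0.93 to 0.24), Snhg3 (-0.29 to 0.19) and Snhg8 (-0.21 to 0.01). In phloridzin against model these were Gpc3 (-0.18 to 0.60), Kcnq1 (-0.29 to 0.04), Lpl (-0.89 to 0.39), Lsp1 (-0.17 to 0.24) and Malat1 (-1.01 to 1.00). Further ranges there were Plagl1 (-0.16 to 0.11), Rian (-0.39 to 0.08), Rpl3 (-0.17 to 0.19) and Sgce (-0.31 to 0.18). In phloridzin against silibinin these were Hnrnph1 (-0.07 to 0.40), Igf2bp2 (-0.46 to 0.21), Kcnq1 (-0.17 to 0.15), Kcnq1ot1 (-0.07 to 0.09), Malat1 (-0.89 to 0.20), Mest (-0.30 to 0.04) and Nop58 (-0.41 to 0.15). Further ranges there were Rnps1 (-0.26 to 0.15), Rpl5 (-0.52 to 0.35), Sfpq (-0.12 to 0.16), Sgce (-0.47 to 0.01), Snhg12 (-0.36 to 0.14), Tra2b (-0.18 to 0.12) and Zhx2 (-0.01 to 0.12). In silibinin against control these were Dancr (-0.13 to 0.03), Gas5 (-0.25 to 0.08), Hnrnph1 (-0.05 to 0.42), Nop56 (-0.28 to 0.05), Nop58 (-0.23 to 0.18) and Rpl5 (-0.04 to 0.84). Further ranges there were Snhg12 (-0.10 to 0.13), Snhg12 on Ensembl transcripts (-0.08 to 0.04), Snhg5 (-0.10 to 0.21), Zfas1 (-0.01 to 0.26) and Zhx2 (-0.03 to 0.31). In phloridzin against control these were Gar1 (-0.20 to 0.16), Gas5 (-0.06 to 0.28), Malat1 (-0.25 to 1.39), Neat1 (-0.94 to 0.40) and Nop56 (-0.09 to 0.24). Further ranges there were Nop58 (-0.47 to 0.12), Rian (-0.49 to 0.11), Smg6 (-0.54 to 0.10), Snhg12 (-0.33 to 0.17), Snhg3 (-0.13 to 0.15) and Tra2b (-0.11 to 0.19).

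Among the differences of the 10 genes under all settings, 1096 kept their sign and side of the threshold, 74 no longer passed, 6 newly passed and 54 changed sign. For the other named genes these numbers were 4168, 262, 41 and 107, with differences that round to 0 counted among the first.

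The replicate block, a term for the sample numbers 1 to 3, gave 1363, 508, 449, 3, 237 and 347 called genes. Beside it, 3 loci passed in the comparison of phloridzin with the model and 0 in the sixth, in limma (2 under an unadjusted p of 0.05). Livers with the same number had correlated deviations of -0.09 to 0.10 in 18 pairs, and 2 of 12 livers were closest to their own number, so the numbers were not taken as pairs.

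Assembled transcripts have no position and could not be included in the alternative with every overlapping transcript. Kcnq1ot1 has no voom value, as the length of its long transcript could not be recovered. With 3 livers a group, small changes are missed, and the groups cannot separate drug from cage or day of handling, which the labels do not give.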
